A study of Homo sapiens with 2 samples.

Results

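To describe where NRF-1 peaks were called under siAATF but not under siControl, the peaks of AATF-depleted cells that lay away from the promoters of coding genes and had no counterpart in control cells were examined. These regions, called here distal siAATF-only peaks, were chosen by the peak lists themselves. A member was a siAATF peak on chromosomes 1 to 22 or X that overlapped no siControl peak by even 1 base and kept clear of the 1 kb flanking each start of a protein-coding transcript in both directions. There were 2045 such peaks, or 30.7% of the 6652 siAATF peaks away from coding promoters. They made up 2045 of 18295 siAATF peaks on these chromosomes, of 18454 in the siAATF list and of 36468 in both lists. Another 403 siAATF-only peaks lay at coding promoters and are not described.

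NRF-1 occupancy was profiled by ChIPmentation, a chromatin immunoprecipitation in which Tn5 transposase adds the sequencing adapters. The cells were U251, a human glioblastoma line, and received either siControl oligonucleotides or siAATF #1 oligonucleotides, which deplete AATF, and both groups were precipitated with the same anti-NRF-1 antibody. The design text of the series names U138, another glioblastoma line, whereas the labels of both samples name U251, which is followed here. A single peak list per condition, each labelled as replicate 1, was analysed, and library depth is unknown. The depletion of AATF cannot be checked in peak lists. With no replicates, comparisons rest on exact 95% intervals, which cover counting error over peaks or genes only, and no difference was tested between conditions.

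NRF-1 recognises GC-rich promoters as a transcription factor, many of them at nuclear genes for the respiratory chain and mitochondrial translation, through a palindromic site. AATF is a transcriptional cofactor that works with sequence-specific factors and RNA polymerase II. Regions away from promoters are known to include enhancers, which in many cell types carry sites for AP-1, the dimeric factor built from JUN, FOS and ATF family proteins.

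The exact NRF-1 palindrome, GCGCA followed at once by its reverse complement, was rare among these regions. It was found in 3 of the 2045 peaks, and in 2 of them it fell in the central 200 bp. Of all 18295 siAATF peaks on these chromosomes, promoter peaks included, 361 held it there (1.97%, interval 1.78 to 2.19). Other forms of the site were not searched, so a peak without the exact palindrome may still hold an NRF-1 site. These 3 regions are shown because they are the members that hold the exact palindrome. Positions are 1-based on hg19, the sequence is the plus strand of the genome, and capitals mark the palindrome.

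Peak nearest to ALG10, chr12:34499815-34499914: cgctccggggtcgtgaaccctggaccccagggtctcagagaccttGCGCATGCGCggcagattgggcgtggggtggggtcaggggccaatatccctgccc
Peak in DLGAP4, chr20:35064553-35064652: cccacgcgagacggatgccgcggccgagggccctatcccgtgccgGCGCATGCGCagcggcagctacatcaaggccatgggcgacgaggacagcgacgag
Peak nearest to ZNF716, chr7:57706678-57706777: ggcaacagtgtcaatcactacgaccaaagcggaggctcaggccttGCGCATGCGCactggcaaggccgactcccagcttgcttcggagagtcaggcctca

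The peak nearest to ALG10 had a fold enrichment over local background of 1.93, near the bottom of the siAATF list, and the closest siControl peak was 405 bp away. The peak in DLGAP4, which encodes a postsynaptic scaffold protein, lay in coding sequence and had a fold enrichment of 3.22. The peak nearest to ZNF716, a zinc finger gene, had a fold enrichment of 3.93 and lay 197 kb from the start of that gene. Among the 4607 distal siAATF peaks that did overlap a siControl peak, called distal shared peaks, 79 held the palindrome in the central 200 bp (1.71%, interval 1.36 to 2.13). Its rarity was not particular to the members (0.0978%, 0.0118 to 0.353). The share was 0.192% (0.0397 to 0.561) in 1561 siControl-only peaks away from coding promoters. It was 0.368% (0.148 to 0.758) in 1900 weak distal shared peaks, those with a −log10 of the peak caller's adjusted p-value under 5. Both intervals overlap that of the members.

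The AP-1 word TGANTCA, where N is any base, was counted as well. It is shorter than the palindrome and has a free position, so the shares of these words cannot be set against each other. The AP-1 word was present in the central 200 bp of 552 members (27.0%, interval 25.1 to 29.0). It was in 6.10% of windows of 200 bp placed 5 kb from members and in 8.66% of all siAATF peaks. Of the 10 strongest members by fold enrichment, those in PCED1B and BMF and the one nearest to FZD1 held it. The next sequences are the remaining strongest members with the word, after the one in PCED1B that follows them, and capitals mark the word.

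Peak in BMF, chr15:40391065-40391163: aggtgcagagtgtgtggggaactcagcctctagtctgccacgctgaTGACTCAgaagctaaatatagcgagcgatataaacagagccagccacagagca
Peak nearest to FZD1, chr7:91187452-91187550: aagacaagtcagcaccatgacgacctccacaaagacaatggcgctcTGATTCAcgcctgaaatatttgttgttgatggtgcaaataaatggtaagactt
Peak in PDE7B, chr6:136336255-136336353: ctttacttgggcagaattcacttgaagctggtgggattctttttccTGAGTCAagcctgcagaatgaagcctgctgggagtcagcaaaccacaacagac
Peak in SPTSSB, chr3:161067828-161067926: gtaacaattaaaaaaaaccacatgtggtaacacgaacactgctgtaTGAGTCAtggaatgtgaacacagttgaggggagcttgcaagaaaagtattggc

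BMF encodes a pro-apoptotic BH3-only protein, FZD1 a WNT receptor and PDE7B a cAMP phosphodiesterase. Fold enrichment was 6.43 at BMF, 6.43 at the peak nearest to FZD1, 6.41 in PDE7B and 5.86 in SPTSSB. The 3 members with the highest fold enrichment of all are shown over 300 bases, again with the AP-1 word in capitals where it occurs. The word was in the first of them only.

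Peak in PCED1B, chr12:47606226-47606525: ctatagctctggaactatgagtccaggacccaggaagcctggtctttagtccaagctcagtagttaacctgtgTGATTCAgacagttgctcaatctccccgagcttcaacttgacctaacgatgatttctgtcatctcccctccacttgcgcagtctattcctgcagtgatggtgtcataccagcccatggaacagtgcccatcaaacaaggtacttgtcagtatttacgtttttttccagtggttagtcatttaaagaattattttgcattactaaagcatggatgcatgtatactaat
Peak nearest to FAM27E3, chr9:67320692-67320991: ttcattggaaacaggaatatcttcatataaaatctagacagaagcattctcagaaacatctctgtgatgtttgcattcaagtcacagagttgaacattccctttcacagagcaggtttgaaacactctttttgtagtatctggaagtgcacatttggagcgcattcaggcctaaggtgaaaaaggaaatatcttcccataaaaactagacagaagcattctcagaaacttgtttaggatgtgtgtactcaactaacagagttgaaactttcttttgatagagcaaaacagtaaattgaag
Peak in SLC41A2, chr12:105252821-105253120: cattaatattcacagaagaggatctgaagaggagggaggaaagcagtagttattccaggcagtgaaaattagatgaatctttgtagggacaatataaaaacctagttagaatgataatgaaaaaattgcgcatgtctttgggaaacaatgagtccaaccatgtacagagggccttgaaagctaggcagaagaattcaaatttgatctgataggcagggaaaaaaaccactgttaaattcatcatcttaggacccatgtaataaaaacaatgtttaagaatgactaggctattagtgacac

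The peak in PCED1B lay in an intron, 3.99 kb from the nearest coding start, with a fold enrichment of 8.20 and a −log10 q of 11.9, where q is the adjusted p-value of the peak caller. The second lay in a non-coding gene on chromosome 9, 0.0455 Mb from an assembly gap, with a fold enrichment of 7.95. Peak lists do not show how uniquely reads mapped so close to a gap, so its placement is uncertain. The third lay in SLC41A2, which encodes a magnesium transporter, with a fold enrichment of 6.94. The siControl list had no peak within 132 kb, 18.5 kb and 98.4 kb of them. The other members among the 10 strongest had fold enrichments from 6.43 to 6.83. They lay in introns of WRN, which encodes the Werner syndrome helicase, EGLN3, a prolyl hydroxylase that acts on hypoxia-inducible factors, and BMF, and outside coding genes nearest to RP11-685N3.1, SPHKAP, NTRK3 and FZD1.

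The members were weak and narrow peaks. These values belong to the contrast that chose the members and are a description. Fold enrichment was 3.83 in the median member, with extremes of 1.92 and 8.20, and the median −log10 q was 2.34. The lowest −log10 q kept in the siAATF list was 1.02. Only 85 members (4.16%) reached a −log10 q of 5. By fold enrichment the median member stood at percentile 15.01 of the siAATF list, where the strongest peak is at 100, and 36 members (1.76%) stood above 50. The median width was 284 bp, and 193 members (9.44%) were at least 500 bp wide. The distal shared peaks had a median fold enrichment of 5.12 and a median width of 519 bp. Since members and shared peaks differ in strength, 2 further classes are set beside them. The first holds the 1561 siControl-only peaks away from coding promoters, 25.3% of 6160, with a median fold enrichment of 3.84 and a median width of 266 bp in their own list. The second holds the 1900 distal shared peaks with a −log10 q under 5, called weak distal shared peaks, with a median fold enrichment of 4.07.

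The members nearest to each limit are given here with the peaks just beyond it. Outside the promoter limit by the smallest margin were peaks in introns of PIEZO2, WASL and GLIS2, whose edges lay 1019, 1028 and 1071 bp from a coding start, with fold enrichments of 3.82, 3.31 and 2.44. Just inside it, and so not members, were peaks in LTBP4, MICAL2 and INKA2, at 990, 986 and 985 bp, with fold enrichments of 4.99, 3.56 and 2.21. At the overlap limit, the closest siControl peak abutted a member upstream of EPS8L3 and was 18 bp and 20 bp from members nearest to PAPLN and ENKUR. Their fold enrichments were 3.59, 3.76 and 4.42. Peaks nearest to COL6A1, LZTS1 and GAP43 were excluded by overlaps of 7, 8 and 10 bp, with fold enrichments of 3.31, 3.41 and 4.08. In all, 35 members (1.71%) lay within 500 bp of a siControl peak, and the median gap to the nearest one was 24.96 kb.

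The most frequent place of a member was an intron of a coding gene. A midpoint fell in an intron of a coding gene for 973 members (47.6%, interval 45.4 to 49.8), in an untranslated exon for 39 (1.91%) and in coding sequence for 53 (2.59%). A further 289 (14.1%) lay in non-coding genes only, and 691 (33.8%) outside any annotated gene, where 37.8% of the assembled sequence lies. In sum 1065 members (52.1%, interval 49.9 to 54.3) lay in a coding gene, while merged coding genes take up 45.9% of the assembled sequence. Distal siControl-only peaks were in a coding gene at 50.2% (47.6 to 52.7), an interval that overlaps that of the members. Distal shared peaks were in one at 41.4% (40.01 to 42.9) and weak distal shared peaks at 46.4% (44.1 to 48.6), both below the members' interval. Of these places, coding sequence was the only one in which members and siControl-only peaks had intervals that did not overlap, with 2.59% (1.95 to 3.38) against 5.12% (4.08 to 6.34).

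**Figure D1:**
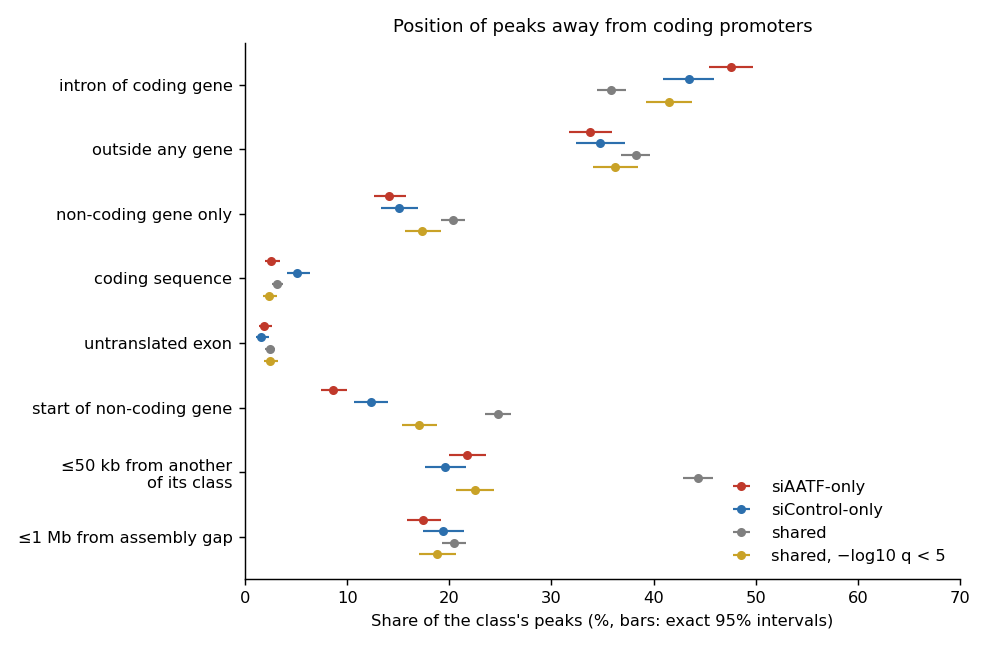
Share of peaks (x axis, %) in each position (y axis) for the 2045 distal siAATF-only, 1561 distal siControl-only, 4607 distal shared and 1900 weak distal shared peaks, with exact 95% intervals as bars. Distal siAATF-only peaks had the highest share of the 4 classes in introns (47.6%) and the lowest at starts of non-coding genes (8.66%).

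The 5 strongest members with a midpoint in coding sequence were in AOPEP (aminopeptidase O), FN1, ERBB4, ATP8A2 and FAM186A. Their fold enrichments were 6.01, 5.52, 5.41, 5.20 and 5.17. FN1 encodes the extracellular matrix protein fibronectin, ERBB4 a receptor tyrosine kinase for neuregulins and ATP8A2 a phospholipid flippase. None of the 5 held an AP-1 word.

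Starts of non-coding genes were less frequent in the members than in the other classes as chosen here. Of the members, 177 (8.66%, interval 7.47 to 9.96) came within 1 kb of one, against 24.7% of distal shared peaks (23.5 to 26.0), 17.0% of weak distal shared peaks (15.3 to 18.8) and 12.3% of siControl-only peaks (10.7 to 14.0). With both lists cut at a −log10 q of 5, the shares were 17.8% (14.6 to 21.4) of 516 siAATF peaks and 17.8% (14.3 to 21.9) of 415 siControl peaks. That cut also admits peaks over weak peaks of the other list, so it does not describe the members alone. With the cut only in the list a peak came from, the shares were 9.41% (8 of 85, 4.15 to 17.7) and 20% (11 of 55, 10.4 to 33.0), with intervals that overlapped. Of the 177, 130 (73.4%) were at a start of a long non-coding RNA gene, 16 at a processed pseudogene and 5 at a microRNA gene. The strongest lay in SLC41A2, the intron peak shown above, 0.355 kb from the start of ENSG00000286410, a non-coding gene that overlaps it. The next were near GPR160P1 in GNLY (fold enrichment 5.91), RNA5SP505 on X (5.74), WASH5P on chromosome 19 (5.69) and LINC00499 on chromosome 4 (5.44). WASH5P and GPR160P1 are pseudogenes, whose reads can be shared with their parent copies, so these placements are uncertain.

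Within coding genes, the members spread along the body and were not gathered towards the start. Over 1129 pairs of a member and a gene that holds it, with each gene body cut into 10 equal bins, bin 1 held 7.26% (interval 5.82 to 8.94) and bin 10 held 12.3% (10.5 to 14.4). The 1 kb at each coding start is closed to members by the rule. Of 861 pairs of a member and a canonical transcript with an intron that holds it, 217 were in intron 1 (25.2%, interval 22.3 to 28.2). A member in overlapping genes can count more than once. Intron 1 makes up 24.8% of all intron length. The share in intron 1 was 29.0% (25.4 to 32.8) for siControl-only, 29.7% (26.3 to 33.3) for weak distal shared and 31.4% (29.0 to 33.9) for distal shared peaks. The last of these intervals lay above that of the members.

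The nearest coding start was far from most members. The median distance from the midpoint was 28.2 kb (interval 25.5 to 30.4). It was 10 to 50 kb for 841 members (41.1%), under 5 kb for 231 (11.3%) and over 100 kb for 411 (20.1%). Members lay upstream of that start in 964 cases (47.1%). Median distances were 27.6 kb (24.6 to 30.4) for siControl-only peaks, 24.2 kb (22.3 to 26.0) for weak distal shared peaks and 23.7 kb (22.5 to 25.1) for distal shared peaks. The nearest coding start belonged to 1675 different genes, 1398 of which were nearest to 1 member and 62 to 3 or more.

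Several of the genes nearest to the most members lay beside gaps. Beside centromeric gaps of the assembly, RP11-685N3.1 on chromosome 2 was the nearest coding gene of 9 members, CWH43 on chromosome 4 of 7, and ALG10 on chromosome 12 and SHCBP1 on chromosome 16 of 4 each, and every one of these members lay within 1 Mb of an assembly gap. The median distances were 686, 274, 332 and 226.5 kb. Among the other genes, EEPD1, which encodes a nuclease-domain protein, was nearest to 6 members at a median of 47.2 kb, and SMAD3, the signal transducer of TGF-β receptors, to 6 at 13.0 kb. CAMTA1 and PODXL, which encodes the sialomucin podocalyxin, were nearest to 5 members each. AUTS2, COL5A1 and DIO3 were among the genes nearest to 4.

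JUN, a subunit of AP-1, was nearest to 4 members, all on its flanks. One lay 28.5 kb downstream at chr1:59220996-59221492, with a fold enrichment of 4.06. The others lay 65.02, 91.0 and 230 kb upstream, over the long non-coding genes LINC01135 and LINC01358, with fold enrichments of 5.06, 4.04 and 3.75. Of the 4, 2 held an AP-1 word, namely those 28.5 and 65.02 kb from the start. Members were also found in ATF3 (chr1:212740256-212740785, fold enrichment 3.33, 1.85 kb from a start) and near BATF3 (28.0 kb) and JUNB (4.92 kb, in HOOK2). The members at ATF3 and BATF3 held the word and the one near JUNB did not. These genes were looked up because of the word and were chosen after the values were seen. Of the 11 AP-1 factor genes listed, 1 held a member, namely ATF3 (9.09%, interval 0.230 to 41.3). That interval includes the 4.84% of all coding genes.

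Coding genes that held a member numbered 973 of 20098 (4.84%). Most of them, 847, held 1 member, while 103 held 2 and 19 held 3. Gene length went with this count. Genes with a member had a median length of 101.5 kb against 27.3 kb for all coding genes, and a member was held by 0.803% of genes under 20 kb and by 20.7% of genes over 500 kb. Per Mb of gene, the density was 1.33 members in genes of 20 to 50 kb and 0.377 in genes over 500 kb, beside 0.820 over all coding genes. Of the 973 genes, 185 also held a distal siControl-only peak, which is 19.0% of these genes and 25.8% of the 716 genes with such a peak. A distal shared peak was in 299 of them (30.7% of these, 18.9% of the 1584 genes with one), and 581 (59.7%) held neither. Of all 20098 coding genes, 3.56% held a siControl-only peak, 7.88% a distal shared peak and 89.6% neither.

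The genes with a member more often had a shared peak at their own promoter. Such a promoter peak was present in 729 of the 950 that have a coding transcript (76.7%, interval 73.9 to 79.4), against 58.6% (57.9 to 59.3) of coding genes without a member. In genes under 50 kb the shares were 67.3% (61.3 to 72.9) and 53.3% (52.4 to 54.1), in genes of 50 to 200 kb 79.8% (75.7 to 83.5) and 71.2% (69.9 to 72.5), and in genes over 200 kb 81.2% (76.0 to 85.7) and 66.3% (63.5 to 68.9). Genes with a siControl-only peak in the body had one at 72.0% (68.5 to 75.3), an interval that overlaps that of genes with a member.

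SHB, which encodes an SH2-domain adaptor protein, held 5 members in 153 kb on chromosome 9, and a readthrough gene over the same region (ENSG00000255872) counted the same 5. They lay in introns with fold enrichments from 3.42 to 3.77, and SHB also held 5 distal shared and 2 siControl-only peaks. CAMTA1, a calmodulin-binding transcription activator, held 5 in 984 kb, with fold enrichments from 3.796 to 4.57. VMP1, an autophagy protein of the endoplasmic reticulum, held 4 in 135 kb, with fold enrichments from 3.87 to 4.35, beside 2 distal shared peaks and no siControl-only peak. The nearest non-coding start of all 4 was that of MIR21, the microRNA at the end of VMP1, and the closest of them, chr17:57914977-57915176, lay 3.55 kb from it. The 2 members of VMP1 farthest from MIR21, at 54.5 and 72.02 kb, held an AP-1 word.

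MORN1, IRAK2, SMAD3, WDR25, NFIC and TSPAN9 held 3 members each. IRAK2, a kinase of interleukin-1 and Toll-like receptor signalling, had 3 over the 78.8 kb of the gene, at 9.12, 27.2 and 40.8 kb from its start, with fold enrichments of 4.43, 3.60 and 3.65. Away from promoters it also held 1 siControl-only peak and no shared peak. In SMAD3 the 3 members lay 11.2, 11 and 12.3 kb downstream of 3 starts of the gene, with fold enrichments of 3.37, 3.31 and 3.92. NFIC, a nuclear factor I transcription factor, held 8 distal shared peaks beside its 3 members. WDR25 held no peak of another class away from promoters, and its members had fold enrichments of 3.70, 3.35 and 4.88.

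AATF itself, the gene targeted by the siRNA, held a member in an untranslated exon, chr17:35413955-35414154, with a fold enrichment of 3.50 and a −log10 q of 1.58. NRF1 held a member in an intron, chr7:129330354-129330847, with a fold enrichment of 3.23 and a −log10 q of 1.21. Both were weak, at percentiles 7.59 and 3.57 of the siAATF list, and were named for the genes they lay in.

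Most members stood alone. On a chromosome, neighbouring members were a median of 499.95 kb apart, and 444 members (21.7%, interval 19.9 to 23.6) had another within 50 kb. The share was 19.6% (17.7 to 21.7) for the 1561 siControl-only and 22.5% (20.6 to 24.4) for the 1900 weak distal shared peaks. It was 44.4% (42.9 to 45.8) for the 4607 distal shared peaks, a larger class, and the part that number plays in this was not tested. When members up to 50 kb apart were chained, 163 groups of 2, 25 of 3, 8 of 4 and 1 each of 5 and 6 were formed.

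The group of 6 covered 114 kb of chromosome 20, chr20:48606088-48720514, from the downstream side of SNAI1 into UBE2V1, which held 2 of them in introns. SNAI1 encodes the Snail repressor of epithelial-to-mesenchymal transition and UBE2V1 a ubiquitin-conjugating enzyme variant. Fold enrichments ran from 3.05 to 4.80, and 1 of the 6 held an AP-1 word. The same stretch held 4 distal shared and 2 siControl-only peaks, so both lists had peaks there. The group of 5, chr17:48074434-48187631, ran from the upstream side of DLX3 over the integrin gene ITGA3 to PDK2, a pyruvate dehydrogenase kinase, with fold enrichments from 3.14 to 3.93. It held no AP-1 word and lay among 7 distal shared peaks and no siControl-only peak. A group of 4 lay inside SHB within 15.5 kb. The other 2 named groups of 4, at chr2:89852273-89879274 and chr2:92269434-92309796, lay 0.0219 and 0.0165 Mb from assembly gaps and outside any annotated gene. Fold enrichments were 3.18 to 4.07 in the first and 4.28 to 6.83 in the second.

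Proximity to an assembly gap was common but not particular to the members. Within 1 Mb of a gap of at least 50 kb lay 357 members (17.5%, interval 15.8 to 19.2), while such sequence makes up 9.83% of the assembly. The share was 19.3% (17.4 to 21.4) for siControl-only, 18.8% (17.1 to 20.6) for weak distal shared and 20.5% (19.3 to 21.7) for distal shared peaks. How uniquely reads mapped beside gaps was not tested, the groups on chromosome 2 included.

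The members were spread over all 23 chromosomes. There were 0.721 members per Mb of assembled sequence, from 0.172 on X and 0.272 on chromosome 4 to 1.75 on chromosome 17 and 1.97 on chromosome 19. As a share of the siAATF peaks away from coding promoters, members ranged from 20.8% on X (interval 14.1 to 29.0) to 35.2% on chromosome 5 (30.1 to 40.4). Chromosome 16 (24.2%, 19.6 to 29.3) and chromosome 19 (25.8%, 21.7 to 30.3) were low, and chromosome 7 (35.1%, 30.6 to 39.7) and chromosome 1 (33.6%, 30.1 to 37.2) high. Chromosomes 16, 19 and X were the ones whose interval lay wholly below 30.7%, and none lay wholly above it.

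Gene families were described from 38 lists of gene symbols. No subunit of the oxidative phosphorylation (OXPHOS) complexes held a member, 0 of 85 genes, which allows a share of up to 3.53%, nor was an OXPHOS start the nearest one within 50 kb of any member. The OXPHOS genes span only 1.59 Mb together. The 78 genes of mitochondrial ribosomal proteins, spanning 2.11 Mb, held none either (up to 3.85%). Of 48 mitochondrial carriers of the SLC25 family 4 held a member (8.33%), 1 each in SLC25A18, SLC25A33, SLC25A37 and SLC25A48. SLC25A37 is the mitochondrial iron importer mitoferrin, SLC25A33 a pyrimidine nucleotide carrier and SLC25A18 a glutamate carrier. Their members had fold enrichments of 3.48, 4.31 and 3.51.

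Calcium channels and myosins were the families whose interval lay above the 4.84% of all coding genes. Calcium channel genes held members in 6 of 26 (23.1%, interval 8.97 to 43.6), among them CACNA1C with 2 (fold enrichments 4.41 and 4.93) and CACNG5, CACNA1H and CACNA2D4 with 1 each. Myosins held them in 8 of 39 (20.5%, 9.30 to 36.5), with 2 in MYO1E. By density, the calcium channels had 1.24 and the myosins 1.57 members per Mb, beside 0.820 over all coding genes, and distal siControl-only peaks had 1.42 and 0.349 per Mb in them. Integrins held members in 4 of 30 genes, namely ITGA10, ITGA3, ITGA6 and ITGB8. Semaphorins and plexins held them in 4 of 29 and adhesion G protein-coupled receptors in 4 of 28, with 2 in ADGRV1. Laminins, in 2 of 12, held them in LAMA5 and LAMB4, and collagens, in 4 of 44, in COL8A2, COL16A1, COL18A1 and COL5A1. The intervals of these last families included 4.84%.

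**Figure D2:**
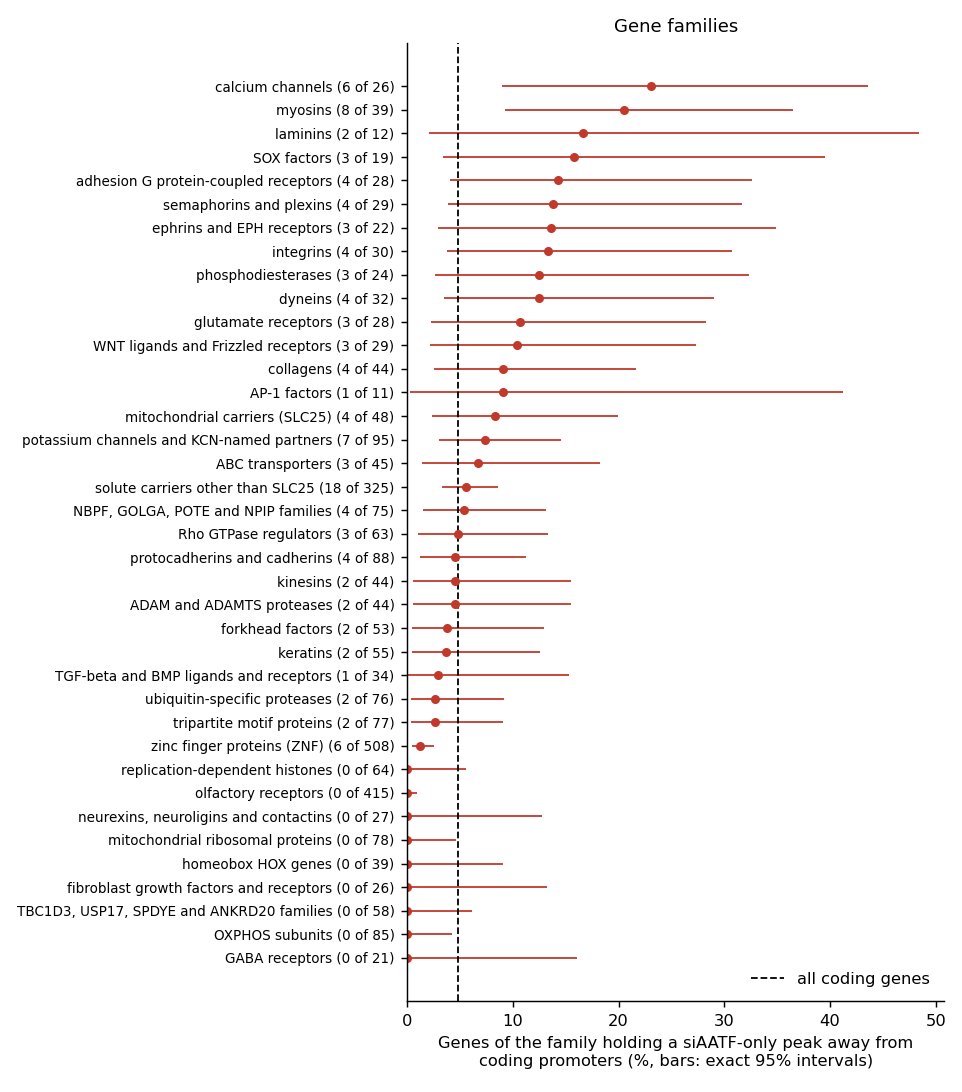
Share of genes that hold a distal siAATF-only peak (x axis, %) in each family (y axis, genes with a member of genes in the list), with exact 95% intervals as bars and the 4.84% of all coding genes as a dashed line. The intervals of calcium channels and myosins lay above the line, and those of ZNF zinc finger proteins, olfactory receptors, OXPHOS subunits and mitochondrial ribosomal proteins below it. The line is not matched for gene length: 0.803% of genes under 20 kb and 20.7% of genes over 500 kb held a member.

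Among developmental regulators, SOX factors held members in 3 of 19 genes, with 3 in SOX6 (fold enrichments from 3.50 to 5.24) and 1 each in SOX13 and SOX5. WNT ligands and Frizzled receptors held them in 3 of 29, with 2 in WNT7B and 1 each in WNT3 and FZD3, at 4.56 members per Mb. These are short genes, and distal shared peaks were at 5.69 per Mb there. HOX genes held none of 39, although distal shared peaks were at 25.03 per Mb in them, and GABA receptor genes held none of 21. ZNF-named zinc finger proteins held members in 6 of 508 (1.18%, interval 0.435 to 2.55), with 2 in ZNF362, and olfactory receptors in 0 of 415, which allows up to 0.723%. The olfactory receptor genes span only 2.73 Mb together. Replication-dependent histone genes held none of 64. The remaining lists, for cadherins, glutamate receptors, potassium channels, solute carriers, keratins, kinesins and the like, had between 0 and 18 genes with a member and intervals that included 4.84%.

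Base composition differed between the members and the other classes as chosen here. Over the whole peak, the median GC content of the members was 53.2% (interval 52.6 to 53.8), against 59.2% (58.7 to 59.5) for siControl-only, 58.3% (57.8 to 58.9) for weak distal shared and 60.1% (59.7 to 60.5) for distal shared peaks. A GC content of at least 60% was found in 26.2% of members (24.3 to 28.1) and 46.1% of siControl-only peaks (43.6 to 48.6). A GC content under 40% was found in 6.89% of members (5.83 to 8.08) and 0.897% of siControl-only peaks (0.491 to 1.5). In the central 200 bp the median was 53.5% for members and 59.5% for siControl-only peaks. The mean of the windows of 200 bp placed 5 kb to either side had a median of 46% around members and 47.3% around siControl-only peaks. The central 200 bp of a member held a median of 4 CpG steps, and those of a siControl-only, weak distal shared and distal shared peak 5, 6 and 9. With both lists cut at a −log10 q of 5, the median GC contents of siAATF and siControl peaks were 58.6% (57.9 to 60.2) and 58.9% (57.6 to 59.7). That cut also admits peaks over weak peaks of the other list, so it does not describe the members alone. With the cut only in the list a peak came from, the medians were 46.4% (44.9 to 52.9) and 56.8% (52.5 to 60.6), with intervals that overlapped. A difference in GC bias between the libraries cannot be told apart from the condition.

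**Figure D3:**
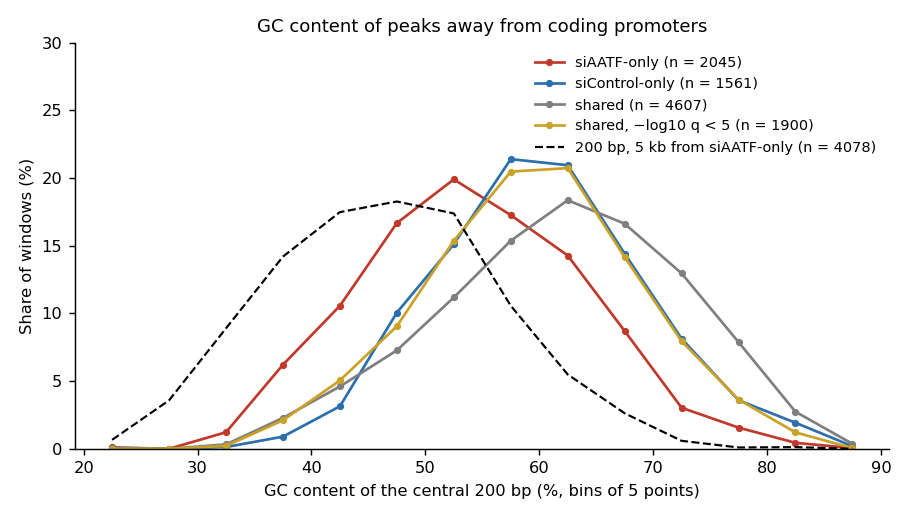
Share of windows (y axis, %) by GC content of the central 200 bp (x axis, %, bins of 5 points) for the 4 classes of peaks and for windows 5 kb from the distal siAATF-only peaks (dashed). The distal siAATF-only peaks (median 53.5%) lay between the flanking windows and the distal siControl-only peaks (59.5%).

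The AP-1 word also differed between the classes. It was in the central 200 bp of 27.0% of members (25.1 to 29.0), 13.1% of siControl-only peaks (11.5 to 14.9), 18.8% of weak distal shared peaks (17.1 to 20.7) and 16.8% of distal shared peaks (15.8 to 17.9). In windows 5 kb from members it was in 6.10% (5.38 to 6.88), in siAATF peaks at coding promoters in 2.22% and in all siAATF peaks in 8.66%. The form TGAGTCA and its reverse complement was in 23.3% of members and 11.1% of siControl-only peaks, and TGAATCA with its reverse complement in 5.18% and 2.63%. Within the members the share went up with fold enrichment, from 20.3% (16.9 to 24.1) in the 512 members with a fold enrichment up to 3.52 to 32.3% (28.3 to 36.5) in the 511 above 4.22. By place it was 28.7% in introns, 26.3% outside genes and 26.6% in non-coding genes, but 13.2% in coding sequence (7 of 53).

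**Figure D4:**
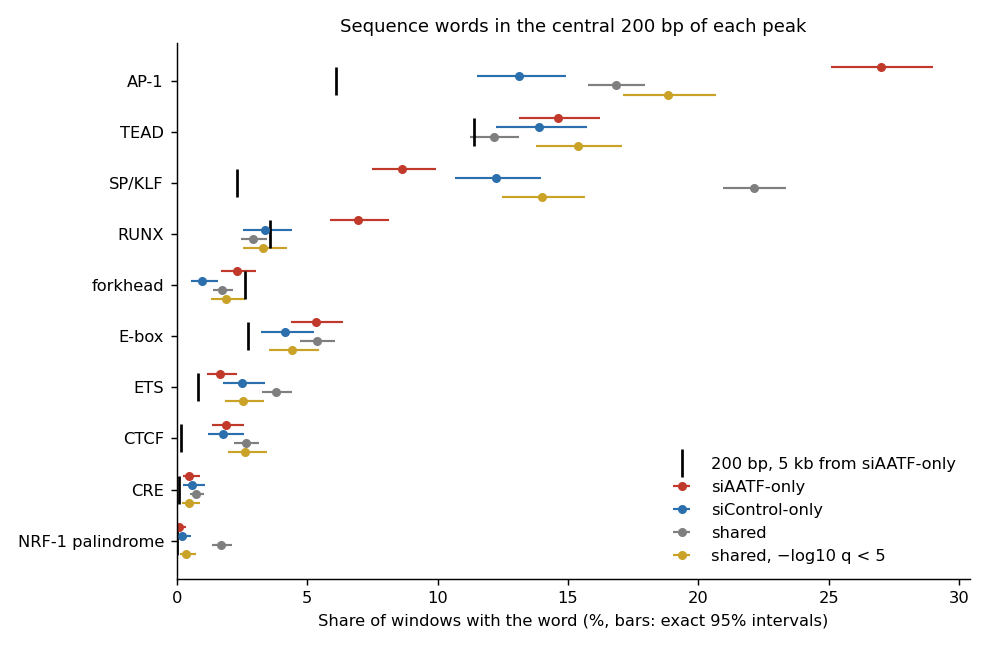
Share of central 200 bp windows that hold each sequence word (x axis, %) by word (y axis) for the 4 classes of peaks, with exact 95% intervals as bars and the share in windows 5 kb from distal siAATF-only peaks as black ticks. Distal siAATF-only peaks held the AP-1 and RUNX words more often than the other classes, with 27.0% and 6.94%, and the SP/KLF word less often, with 8.66%.

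The word depends on base composition, so the classes were also set side by side within ranges of GC content. Below 45% GC the word was in 29.5% of members (24.9 to 34.4) and 13.6% of siControl-only peaks (6.43 to 24.3, 9 of 66). From 45% to 55% it was in 33.4% (30.05 to 36.9) and 23.2% (19.1 to 27.6). From 55% to 65% the shares were 27.9% (24.5 to 31.5) and 12.6% (10.1 to 15.3). From 65% up they were 4.61% (2.48 to 7.75) and 4.99% (3.15 to 7.46). Weak distal shared peaks had 24.3%, 29.3%, 19.2% and 7.41% in these ranges, and their interval was apart from that of the members only from 55% to 65%.

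The word was spread broadly over the centre of the members and was less frequent further out. In bins of 25 bp, the share of members with a word ran from 2.79% to 4.69% over the 5 bins on each side of the midpoint. It was highest from 25 to 50 bp and not in the bins beside the midpoint. In the next bin out on either side, the outermost counted, the share was lower, at 2.00% and 2.20%. For siControl-only peaks the share was highest in the bins beside the midpoint, 3.01% and 2.56%, and at most 1.79% in every other bin counted.

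**Figure D5:**
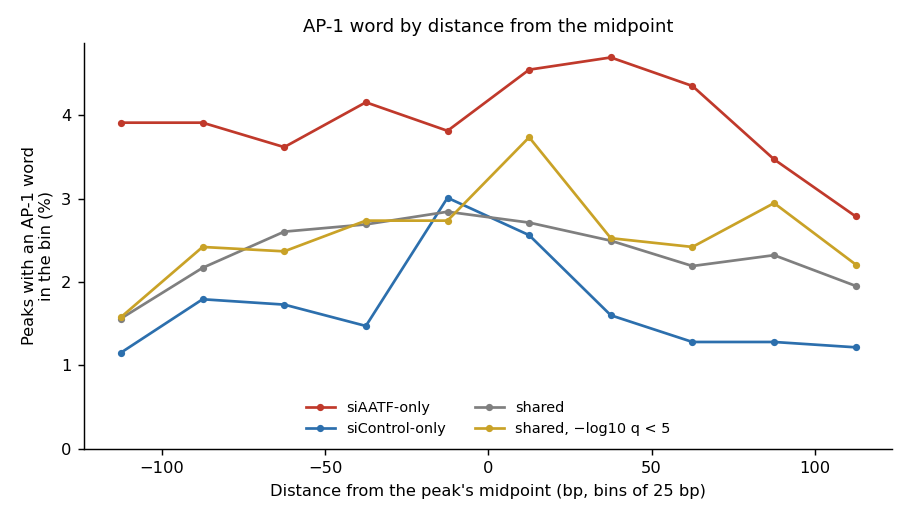
Share of peaks with an AP-1 word in a bin (y axis, %) by distance from the midpoint (x axis, bp, bins of 25 bp) for the 4 classes of peaks. Distal siAATF-only peaks lay above distal siControl-only peaks in every bin shown, from 2.79% to 4.69% against 1.15% to 3.01%.

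A few other words were counted in the same windows on both strands. The RUNX word TGTGGTT, the core read by RUNX factors, was in 6.94% of members (5.88 to 8.13), 3.40% of siControl-only peaks (2.55 to 4.42), 3.32% of weak distal shared peaks (2.56 to 4.22) and 3.59% of windows 5 kb from members (3.04 to 4.21). Within each range of GC content the intervals of members and siControl-only peaks overlapped for this word. The shares were 12.2% (9.01 to 15.9) and 4.55% (0.947 to 12.7) below 45% GC, 7.49% (5.70 to 9.61) and 4.07% (2.34 to 6.53) from 45% to 55%, 5.74% (4.07 to 7.82) and 3.78% (2.46 to 5.53) from 55% to 65%, and 1.42% and 2.04% from 65% up. Members with a RUNX word held the AP-1 word at 25.4% and members without one at 27.1%. The SP/KLF word GGGCGGG was in 8.66% of members (7.47 to 9.96), 12.2% of siControl-only peaks (10.7 to 14.0) and 14.0% of weak distal shared peaks (12.5 to 15.6), but in 2.31% of windows 5 kb away.

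The remaining words gave intervals for the members and the siControl-only peaks that overlapped, apart from the forkhead word TGTTTAC. That word was in 2.30% of members (1.69 to 3.04) and 0.961% of siControl-only peaks (0.539 to 1.58), beside 2.61% in windows 5 kb from members. The CTCF motif, read by the architectural factor CTCF, was in 1.91% of members and 1.79% of siControl-only peaks, and in 0.172% of windows 5 kb from members. The TEAD word GGAATG was in 14.6% and 13.9%, the E-box CACGTG in 5.33% and 4.16%, the ETS word CCGGAAG in 1.66% and 2.50% and the CRE word TGACGTCA in 0.489% and 0.577%. The TEAD word is contained in the satellite word GGAATGGAA, which was in 1.17% and 1.02%. The C/EBP word TTGCGCAA was in 2 members, the CENP-B box, a centromeric motif, in 2 and the telomere word TTAGGGTTA in 3. The p53 word RRRCWWGYYY, with R for A or G, W for A or T and Y for C or T, is only a part of a full p53 site. It was in 6.45% of members, 6.66% of siControl-only peaks and 4.99% of windows 5 kb from members. A match is a description of the sequence and not evidence of a bound factor.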

How the data were processed

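The data are 2 MACS2 broadPeak lists from 1 NRF-1 ChIPmentation library label per condition in U251 cells. Per the study's methods the experiment was done in duplicate, reads were aligned with Bowtie2 to hg19, and a pipeline made for ATAC-seq was run with its defaults, so read shifting or extension at transposase cut sites may move peak edges. Whether replicates were pooled, and whether an input served as control, is not given in the sources used here. The authors deposited start and end in bp, a fold enrichment, which is a ratio over local background, −log10 p and −log10 q values, and a display score, which was not used. Weak peaks were kept in both lists.

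A peak was a member if it overlapped no siControl peak by at least 1 base and did not touch 1 kb either side of the start of a coding transcript of a coding gene (GENCODE release 44 lifted to GRCh37). Midpoints placed peaks in genes in the order coding sequence, untranslated exon, intron, non-coding gene. GC content and words were read from GRCh37 in the central 200 bp, and gaps were runs of at least 50 kb without sequence. Shares carry exact Clopper-Pearson 95% intervals and medians exact order-statistic intervals. The limit for a count of 0 is 3 counts of the total. Functions were tested on simulated data. Python 3.11.15, numpy 2.4.6, pandas 2.3.3, scipy 1.17.1 and matplotlib 3.10.9 were used.

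Named were the 10 strongest members, the 10 genes that hold the most members (ties by density), the 5 largest groups, members with the NRF-1 palindrome, up to 4 leading genes a family, OXPHOS genes with a member, the 3 peaks nearest each limit and the 5 strongest members in coding sequence. Members, gene lists, words and the weak shared class were chosen with earlier results of these data known, AP-1 and clustering included, and 3 family lists were corrected after their values were seen. The alternatives were stricter −log10 q, other overlap, promoter, gap and window settings and canonical starts.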

Additional observations from a re-analysis of the deposited data

How the results depend on the processing

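No paired analysis was possible because each condition has 1 peak list and no test was made. The 10 results were recomputed under 14 other settings, giving 77 values, of which 48 stayed within the interval of the value given, or within 1.5 times the count, and 29 moved. When both lists were cut at a −log10 q of 5, the rule chose 516 peaks (18.5% of distal siAATF peaks), a changed set, since 85 members reached that value. Of the 516, 45.3% lay in a coding gene, 39.5% outside genes and 10.9% within 50 kb of another, at a median distance of 23.8 kb. Their median GC content was 58.6%, with 24.2% holding the AP-1 word, 17.8% at a non-coding start and 23.3% near an assembly gap. The 516 include peaks over weak siControl peaks, which count as shared under the main rule. Their intervals for GC content and non-coding starts overlapped those of siControl peaks cut alike. Because the set changed, this cannot tell whether the contrasts of the members depend on the threshold. Requiring a −log10 q of 5 in the siAATF list alone left 85 members (3.04%), with 55.3% in a coding gene and 9.41% within 50 kb of another. Their median GC content was 46.4%, with 31.8% holding the AP-1 word and 32.9% near a gap. In siControl-only peaks at that threshold the word was in 10.9% (6 of 55) and the median GC content was 56.8%, and the intervals of both measures overlapped those of the members. Counting only a reciprocal overlap of at least 50% as shared moved the share of distal siAATF peaks to 38.1%, the share within 50 kb of another to 28.4%, the median GC content to 54.1% and non-coding starts to 10.2%. Without peaks within 1 Mb of a gap, 31.2% lay outside genes and the median GC content was 52.6%. The cause of these moves was not tested. With canonical starts alone the median distance was 42.5 kb. Grouping distances of 10 kb and 100 kb gave 5.92% and 31.8%, windows of 100 bp and of the whole peak gave 14.8% and 35.6% with the AP-1 word, and 6.65% lay within 250 kb of a gap. Depth is unknown, and whether a peak absent from the siControl list lay just under its threshold was not tested.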

Other observations

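The contrast in AP-1 and RUNX words between members and siControl-only peaks was also read under 7 other settings applied to both lists alike, 2 of which were added after the data were seen. With both lists cut at a −log10 q of 5, sets that also admit peaks over weak peaks of the other list, the AP-1 word was in 24.2% of 516 siAATF peaks (20.6 to 28.2). It was in 11.6% of 415 siControl peaks (8.65 to 15.04), and the RUNX word was in 4.26% (2.69 to 6.38) and 2.65% (1.33 to 4.69). With a 500 bp promoter, the AP-1 word was in 26.6% and 12.8% and the RUNX word in 6.98% and 3.31%. The AP-1 word was in 25.6% and 14.1% with a reciprocal overlap of 50%, in 27.3% and 13.1% when peaks within 500 bp of one of the other list were also taken as shared, in 27.0% and 13.7% with a 2 kb promoter and in 28.4% and 13.8% without peaks near assembly gaps. The RUNX word was in 6.19% and 3.23%, 7.01% and 3.45%, 7.13% and 3.48%, and 7.70% and 3.34% under these settings. The intervals of the classes were apart for both words under these 4 settings and the 500 bp promoter. With both lists cut they were apart for the AP-1 word and overlapped for the RUNX word. With the cut in the query list alone they overlapped for both words, with the AP-1 word in 31.8% of 85 members (22.1 to 42.8) and 10.9% of 55 siControl-only peaks (4.11 to 22.2), and the RUNX word in 6 and 1.

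Outside chromosomes 1 to 22 and X, where no member could be chosen, 32 of 159 siAATF peaks (20.1%, interval 14.2 to 27.2) overlapped no siControl peak, and 36 of 164 siControl peaks (21.95%, 15.9 to 29.1) overlapped no siAATF peak.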
